A study of Arabidopsis thaliana with 12 samples.

Results

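The genes described here are the auxin receptors, the Aux/IAA repressors and the auxin response factors (ARFs) of Arabidopsis thaliana that a list of 47 loci names. The list gives them by name and locus, and they comprise 29 Aux/IAA genes, 13 ARF genes and 5 receptor genes among 32627 loci on the array. All 47 were measured on every array and none was removed by a filter. RNA from leaves of 4-week-old plants was profiled in 4 groups of 3 arrays, and all plants carried the same DEX-MKK4DD transgene. This transgene makes a constitutively active form of MKK4, a MAPK kinase that activates MPK3 and MPK6, when the steroid dexamethasone (DEX) is given. The groups were sid2-2 with 2 µM DEX, sid2-2 with 0.1% ethanol (mock), Col with DEX and Col with mock, all collected 24 h after infiltration. The sid2-2 mutation removes the isochorismate synthase that makes most of the salicylic acid (SA) of infected leaves, and the transgene was brought into this background by crossing. Plants without the transgene were not analysed here, so an effect of DEX itself and an effect of MKK4DD cannot be told apart. The comparisons ask how DEX changed these genes in each background, and whether its effect differed when the SA synthesis enzyme was missing.

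Auxin is perceived by TIR1 and its relatives, the AFB proteins, which are F-box subunits of an SCF ubiquitin ligase. Auxin joins the receptor to a short degron in an Aux/IAA protein, and the Aux/IAA protein is then degraded. Aux/IAA proteins otherwise sit on ARFs, which bind auxin response elements in promoters, and recruit TOPLESS co-repressors there. Many Aux/IAA genes are themselves rapidly induced by auxin, so the family holds both repressors and targets of the pathway. In leaves the pathway is known for its roles in cell expansion, in vein patterning and in the polarity of the blade.

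The labels and the arrays were checked first. Median intensities lay between 255 and 262 on the DEX arrays and between 268 and 289 on the mock arrays, without overlap. The lower quartile of the loci lay between 4.15 and 4.2 on the log2 scale. The MKK4 transcript rose by 2.03 ± 0.14 (log2, ± SE) in sid2 and by 1.92 ± 0.14 in Col. The SID2 transcript stood between 6.01 and 6.21 (log2 intensity) in the sid2 DEX arrays and between 6.0 and 6.26 in the sid2 mock arrays. It stood at 12.48 and 12.26 in Col DEX replicates 1 and 3 and between 9.72 and 10.36 in the Col mock arrays. The array labelled Col DEX replicate 2 held 6.08, within the range of the sid2 arrays, which goes against its label. Among the 47 genes and the other auxin genes, small RNA loci and markers read here, leaving this array out moved no called change by over 1.5-fold. In Col it ended the calls of ARF21, GH3.1 and PDF1 and added calls of GH3.17, MIR393a and KAT1, and in sid2 no call among these genes changed. Leaf identity was checked with marker genes. The summed intensity of 4 mesophyll markers was 28100 to 36800 in sid2 DEX and 60800 to 63600 in sid2 mock, against 24800 to 35800 in Col DEX and 58600 to 64800 in Col mock. The seed markers SESA1 and CRU3 stayed between group means of 3.77 and 4.21 (log2), near the bottom of the array range.

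Most of the auxin signalling genes that responded to DEX fell. Changes are given as log2 DEX minus mock with the SE of the fit, over 3 arrays per group. In sid2, 24 of the 47 genes were called, at an adjusted p under 0.01 and a change of more than 2-fold in the limma fit, against 27.8% of all loci. Of these 24 genes, 23 were called lower, against 14.8% of all loci, and 1 higher, against 13.0%. In Col, 21 of the 47 were called, against 28.7% of all loci, with 20 lower, against 15.0%, and 1 higher, against 13.8%. The median log2 change was -1.06 in sid2 and -0.97 in Col, while the median of all loci was 0.04 in each. All 21 genes called in Col were called in the same direction in sid2. The 3 genes called in sid2 alone were IAA19, ARF1 and ARF19, and the first 2 of them lay on either side of the 2-fold limit, at log2 changes of -1.06 and -1.01 in sid2 and of -0.97 and -0.97 in Col. In each background 32 genes had all DEX arrays below all mock arrays, 6 had them above, and 9 overlapped. Over all loci, 60.6% in sid2 and 57.7% in Col had groups that did not overlap in either direction. Without Col DEX replicate 2 the same 21 genes were called in Col and the same 24 in sid2.

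Markers of some leaf cell types moved with these changes. The mesophyll sum given above was lower with DEX in both backgrounds, and 2 of its 4 markers were called lower in sid2 and 3 in Col. The summed intensity of 3 epidermal markers was 904 to 2180 in sid2 DEX and 13800 to 15900 in sid2 mock, and 794 to 2320 in Col DEX and 14400 to 17500 in Col mock. ATML1, an epidermal transcription factor, fell by 3.74 (log2) in sid2 and by 3.77 in Col. The guard cell sum was 3400 to 3820 in sid2 DEX and 8050 to 10300 in sid2 mock. In Col this sum was 2720 to 3890 with DEX and 7390 to 10900 with mock. Of the 5 guard cell markers, GC1 and MYB60 were called lower in both backgrounds and KAT1 in sid2 alone. FAMA and HT1 were called in neither. The trichome marker GL2 and the flower gene AG were called lower in both backgrounds, and GL1 and AP1 in neither. None of the 3 phloem markers and none of the 3 xylem markers was called in either background. Fewer cells of a type and less RNA per cell cannot be told apart in whole leaves, and the part of cell composition in the changes of the auxin genes was not tested.

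**Figure D1:**
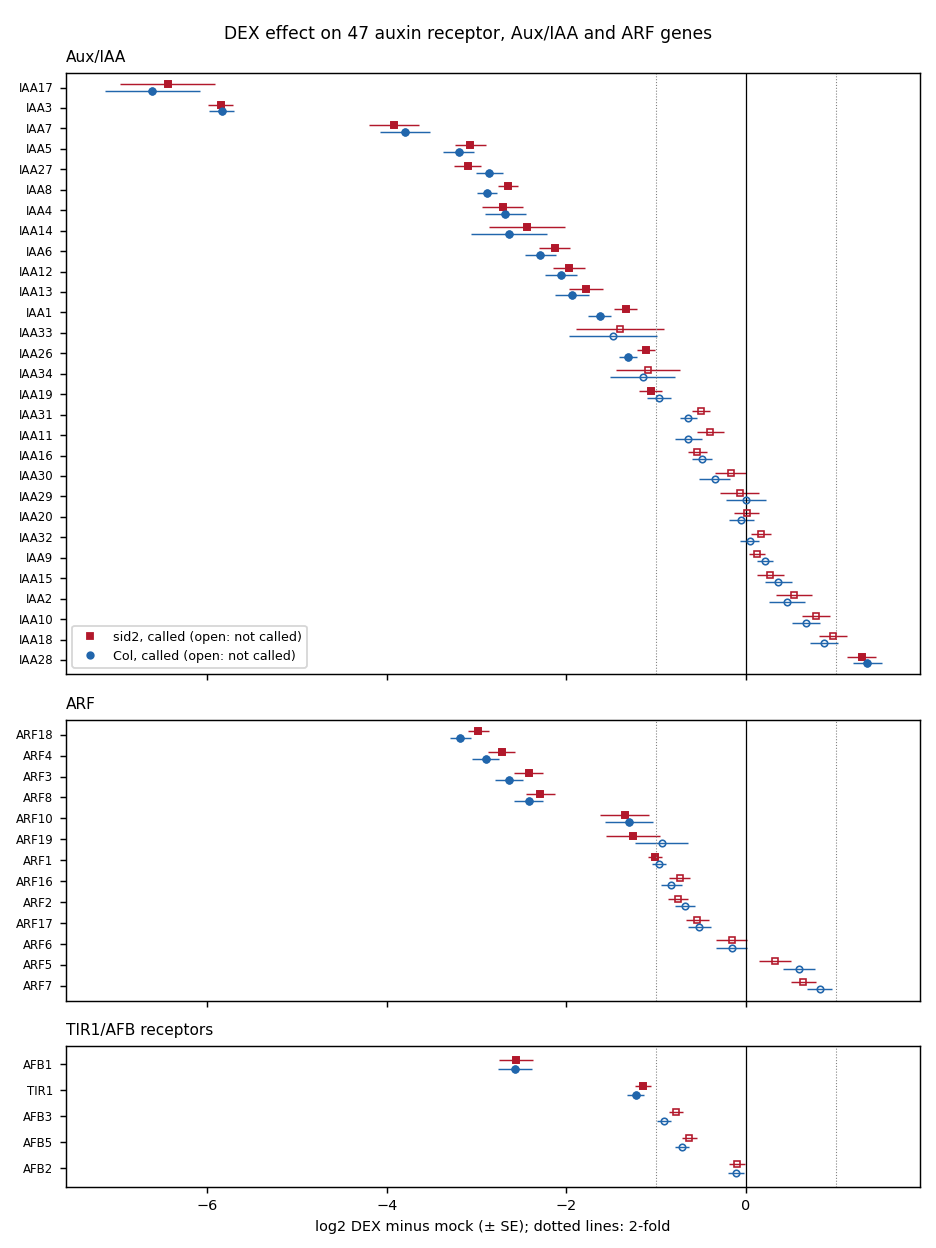
Change with DEX of each of the 47 genes, as log2 DEX minus mock with its SE (n = 3 arrays per group), for sid2 (red squares) and Col (blue circles), with filled symbols for called genes and dotted lines at 2-fold. IAA17 lies farthest to the left at -6.44 in sid2 and -6.61 in Col, and IAA28 is the only filled symbol to the right of 0.

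Among the receptor genes, AFB1 and TIR1 fell, AFB3 and AFB5 were lower by less than 2-fold, and AFB2 changed least. The median of the 5 genes was -0.78 in sid2 and -0.91 in Col. AFB1, AT4G03190, encodes a close relative of TIR1 and is listed as GRH1 in RefSeq. AFB1 stood at 8.51, 7.81 and 8.22 (log2 intensity of replicates 1, 2 and 3) in sid2 DEX and at 10.86, 10.86 and 10.49 in sid2 mock, against 8.32, 7.62 and 8.14 in Col DEX and 10.87, 10.52 and 10.39 in Col mock. The DEX arrays did not overlap the mock arrays, and the change was -2.56 ± 0.19 (adjusted p = 6.28e-07) in sid2 and -2.57 ± 0.19 (adjusted p = 5.62e-07) in Col.

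TIR1, AT3G62980, encodes the first F-box protein shown to bind auxin. In sid2, TIR1 had log2 intensities of 12.18, 11.92 and 12.02 with DEX and 13.27, 13.18 and 13.11 with mock, and in Col 12.07, 11.87 and 12.11 with DEX and 13.27, 13.14 and 13.34 with mock. The groups were far apart relative to their spread, with a change of -1.15 ± 0.09 (adjusted p = 1.29e-06) in sid2 and -1.23 ± 0.09 (adjusted p = 6.74e-07) in Col. AFB3, AT1G12820, belongs to the same clade. The log2 intensities of AFB3 were 12.41, 12.22 and 12.31 in sid2 DEX and 13.06, 13.09 and 13.12 in sid2 mock, and 12.33, 12.11 and 12.24 in Col DEX and 13.14, 13.09 and 13.19 in Col mock. Its change of -0.78 ± 0.08 (adjusted p = 1.05e-05) in sid2 and -0.91 ± 0.08 (adjusted p = 2.82e-06) in Col passed the p limit but stayed under 2-fold. The more distant receptor AFB5, AT5G49980, mediates the response to picloram-type auxins. Arrays of sid2 held 12.26, 12.10 and 12.25 for AFB5 in DEX and 12.82, 12.90 and 12.77 in mock, and those of Col held 12.16, 12.13 and 12.23 in DEX and 12.89, 12.83 and 12.93 in mock (log2 intensity). All DEX arrays were again below all mock arrays, and the change was -0.63 ± 0.08 (adjusted p = 4.8e-05) in sid2 and -0.71 ± 0.08 (adjusted p = 1.77e-05) in Col, also under 2-fold. AFB2, AT3G26810, is the remaining member of the clade of TIR1. AFB2 stood at 11.92, 11.99 and 12.12 (log2 intensity of replicates 1, 2 and 3) in sid2 DEX and at 12.09, 12.07 and 12.15 in sid2 mock, against 12.04, 12.07 and 12.19 in Col DEX and 12.15, 12.11 and 12.38 in Col mock. Here the groups overlapped in both backgrounds, and the change was -0.10 ± 0.09 (adjusted p = 0.382) in sid2, with a 95% interval of -0.29 to 0.10, and -0.11 ± 0.09 (adjusted p = 0.302) in Col, with an interval of -0.30 to 0.08. These intervals lie within 2-fold.

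Of the 29 Aux/IAA genes, 14 fell and 1 rose in sid2, and 13 fell and 1 rose in Col. Over all loci, 14.8% were called lower and 13.0% higher in sid2, and 15.0% lower and 13.8% higher in Col. The median change of the 29 genes was -1.09 in sid2 and -1.15 in Col. The 8 genes with the largest mean falls were IAA17, IAA3, IAA7, IAA5, IAA27, IAA8, IAA4 and IAA14. IAA17, AT1G04250, is AXR3, whose degron mutants give dwarf plants with poor root gravitropism. In sid2, IAA17 had log2 intensities of 6.94, 5.37 and 5.30 with DEX and 12.53, 11.78 and 12.63 with mock, and in Col 7.09, 4.93 and 4.82 with DEX and 12.17, 11.73 and 12.79 with mock. Replicate 1 stood well above the other DEX arrays in both backgrounds, and all DEX arrays were still far below the mock arrays. The gene was 86.9-fold lower with DEX in sid2, a change of -6.44 ± 0.53 (adjusted p = 1.27e-06), and 98.0-fold lower in Col, a change of -6.61 ± 0.53 (adjusted p = 9.44e-07). Without DEX replicate 1 of the background itself, the change of IAA17 was -6.87 in sid2 and -7.27 in Col.

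IAA3, AT1G04240, is SHY2, which restrains cell division at the root meristem in response to cytokinin. The log2 intensities of IAA3 were 6.04, 5.90 and 6.24 in sid2 DEX and 11.96, 11.65 and 12.13 in sid2 mock, and 5.99, 6.08 and 5.87 in Col DEX and 11.82, 11.56 and 12.09 in Col mock. The DEX arrays of both backgrounds stood close together. IAA3 was 57.7-fold lower with DEX in sid2, a change of -5.85 ± 0.14 (adjusted p = 3.41e-10), and 57.4-fold lower in Col, a change of -5.84 ± 0.14 (adjusted p = 3.3e-10), with smaller errors than for IAA17. IAA7, AT3G23050, is AXR2, named for auxin-resistant mutants with short hypocotyls. Arrays of sid2 held 6.60, 5.66 and 5.82 for IAA7 in DEX and 9.87, 9.92 and 10.06 in mock, and those of Col held 6.75, 5.43 and 6.29 in DEX and 9.85, 10.00 and 10.00 in mock (log2 intensity). As for IAA17, the highest DEX array was replicate 1 in both backgrounds. IAA7 changed by -3.92 ± 0.28 (adjusted p = 4.06e-07) in sid2 and by -3.80 ± 0.28 (adjusted p = 4.84e-07) in Col.

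IAA5, AT1G15580, is an early auxin-induced gene. IAA5 stood at 3.79, 3.73 and 3.92 (log2 intensity of replicates 1, 2 and 3) in sid2 DEX and at 7.07, 6.46 and 7.11 in sid2 mock, against 3.97, 3.65 and 3.84 in Col DEX and 6.93, 6.74 and 7.39 in Col mock. The 6 DEX arrays lay below the lower quartile of all loci on their arrays, so the change of -3.07 ± 0.17 (adjusted p = 5.5e-08) in sid2 and -3.20 ± 0.17 (adjusted p = 3.71e-08) in Col ends near the low end of the array range. With 16 added to each intensity before the log, the change of IAA5 was -2.16 in sid2 and -2.28 in Col. IAA27, AT4G29080, was also named PAP2 for its binding to phytochrome. In sid2, IAA27 had log2 intensities of 8.53, 8.79 and 8.91 with DEX and 11.72, 12.00 and 11.80 with mock, and in Col 9.09, 9.16 and 8.83 with DEX and 11.62, 11.84 and 12.19 with mock. The change was -3.10 ± 0.15 (adjusted p = 2.25e-08) in sid2 and -2.86 ± 0.15 (adjusted p = 3.81e-08) in Col, with no overlap between DEX and mock. IAA8, AT2G22670, has a known role in lateral root formation. The log2 intensities of IAA8 were 10.66, 10.56 and 10.47 in sid2 DEX and 13.23, 13.11 and 13.31 in sid2 mock, and 10.44, 10.10 and 10.26 in Col DEX and 13.21, 12.96 and 13.25 in Col mock. The spread within each group was small, and the change was -2.65 ± 0.11 (adjusted p = 5.38e-09) in sid2 and -2.88 ± 0.11 (adjusted p = 2.94e-09) in Col.

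IAA4, AT5G43700, is an auxin-induced gene listed as ATAUX2-11 in RefSeq. Arrays of sid2 held 8.24, 7.43 and 7.58 for IAA4 in DEX and 10.33, 10.77 and 10.26 in mock, and those of Col held 8.07, 7.47 and 7.48 in DEX and 10.37, 10.64 and 10.06 in mock (log2 intensity). The highest DEX array was once more replicate 1 in both backgrounds, and the change was -2.71 ± 0.23 (adjusted p = 1.55e-06) in sid2 and -2.68 ± 0.23 (adjusted p = 1.53e-06) in Col. IAA14, AT4G14550, is SLR, whose degron mutant forms no lateral roots. IAA14 stood at 7.55, 6.92 and 7.08 (log2 intensity of replicates 1, 2 and 3) in sid2 DEX and at 9.5, 8.74 and 10.62 in sid2 mock, against 7.33, 6.51 and 7.22 in Col DEX and 9.65, 8.73 and 10.60 in Col mock. Its mock arrays were widely spread, with replicate 2 lowest and replicate 3 highest in both backgrounds, and the change was -2.44 ± 0.42 (adjusted p = 0.000406) in sid2 and -2.64 ± 0.42 (adjusted p = 0.000219) in Col.

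**Figure D2:**
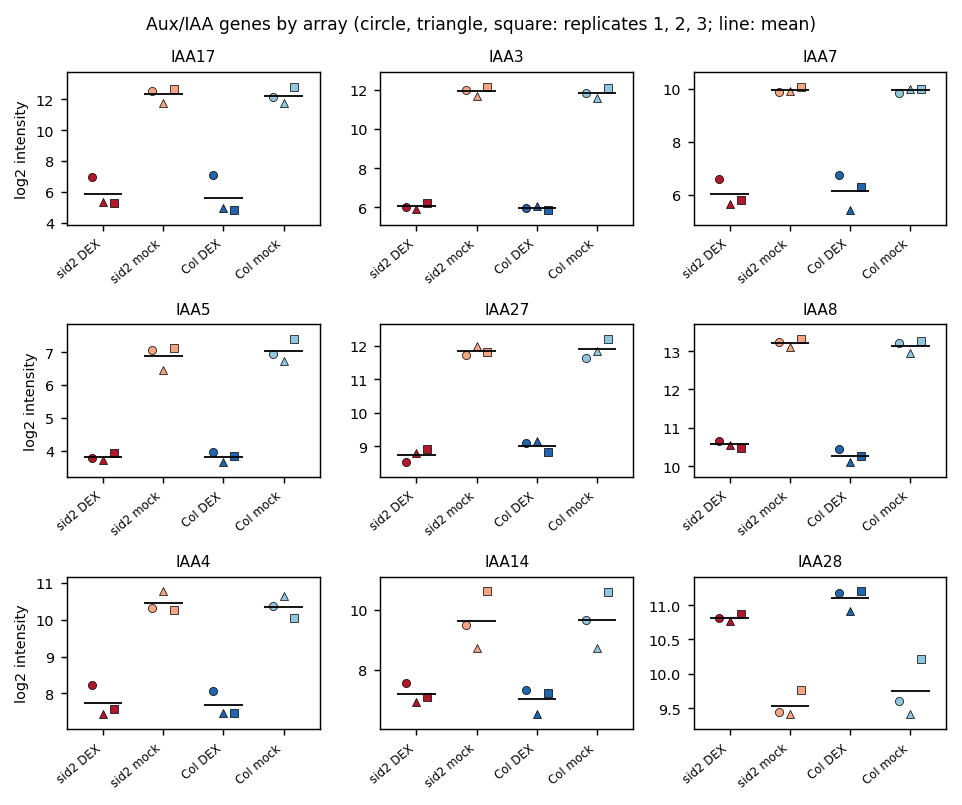
Log2 intensity of 9 Aux/IAA genes on each array, in the order sid2 DEX, sid2 mock, Col DEX and Col mock, with circles, triangles and squares for replicates 1, 2 and 3 and a line at the group mean. For 8 genes all DEX arrays lie below all mock arrays, with the largest gaps in IAA17 and IAA3, and for IAA28 all DEX arrays lie above.

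IAA28, AT5G25890, was the only one of the 47 genes called higher. It encodes a repressor known from a mutant with few lateral roots, and its transcript is a target of miR847. In sid2, IAA28 had log2 intensities of 10.82, 10.77 and 10.87 with DEX and 9.44, 9.41 and 9.76 with mock, and in Col 11.18, 10.91 and 11.20 with DEX and 9.61, 9.41 and 10.21 with mock. All DEX arrays were above all mock arrays, with a change of 1.29 ± 0.16 (adjusted p = 3.05e-05) in sid2 and 1.35 ± 0.16 (adjusted p = 2.01e-05) in Col. IAA18 and IAA10 also had higher DEX arrays in both backgrounds but stayed under 2-fold. For IAA18, which acts in the embryo and in lateral root initiation, the change was 0.97 ± 0.16 in sid2 and 0.87 ± 0.16 in Col. IAA10 changed by 0.78 ± 0.16 in sid2 and by 0.67 ± 0.16 in Col.

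Called falls of a smaller size were measured in 6 further Aux/IAA genes, of which IAA19 was called in sid2 alone. IAA6, known as SHY1, changed by -2.13 ± 0.17 in sid2 and -2.29 ± 0.17 in Col, with its DEX arrays below the lower quartile of all loci, and by -1.29 in sid2 and -1.43 in Col with 16 added to each intensity. IAA12, the BODENLOS repressor that acts with ARF5 in the embryo, changed by -1.97 ± 0.18 in sid2 and -2.06 ± 0.18 in Col, and its close homologue IAA13 by -1.78 ± 0.19 in sid2 and -1.94 ± 0.19 in Col. IAA1, AT4G14560, an early auxin-induced gene, is one of the genes with the smallest p in the comparison of the backgrounds. The log2 intensities of IAA1 were 8.38, 8.58 and 8.95 in sid2 DEX and 9.88, 9.91 and 10.13 in sid2 mock, and 8.08, 8.33 and 8.42 in Col DEX and 9.84, 10.02 and 9.86 in Col mock. It fell by 1.34 (log2, adjusted p = 4.9e-06) in sid2 and by 1.63 (adjusted p = 9.58e-07) in Col, with no overlap between DEX and mock. IAA26, also named PAP1, changed by -1.11 ± 0.10 in sid2 and -1.31 ± 0.10 in Col. IAA19, known as MSG2 for its role in tropic growth of the hypocotyl, changed by -1.06 ± 0.13 in sid2 and by -0.97 ± 0.13 in Col.

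The other Aux/IAA genes were not called in either background. IAA16 changed by -0.54 (log2) in sid2 and -0.49 in Col, and IAA11 by -0.40 in sid2 and -0.64 in Col. IAA2, IAA9, IAA15 and IAA29 had changes between -0.07 and 0.54 in sid2 and between 0.00 and 0.46 in Col. IAA9, AT5G65670, whose tomato homologue restrains leaf and fruit development, was among the genes with the smallest p between the mock groups. Arrays of sid2 held 12.88, 12.85 and 12.97 for IAA9 in DEX and 12.76, 12.90 and 12.70 in mock, and those of Col held 12.90, 12.76 and 12.87 in DEX and 12.58, 12.67 and 12.64 in mock (log2 intensity). DEX and mock arrays stood close together, and the change with DEX was 0.12 ± 0.09 (adjusted p = 0.282) in sid2 and 0.21 ± 0.09 (adjusted p = 0.0563) in Col.

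All Aux/IAA genes that were called encode proteins with a regular degron. Among the 23 genes of this kind, 15 were called in sid2, against 27.8% of all loci, and 14 in Col, against 28.7%. The median change of these 23 genes was -1.34 in sid2 and -1.63 in Col. IAA20 and IAA30 to IAA34 lack this degron or carry an altered one, and 0 of these 6 genes was called in either background by limma. Some of them were near the low end of the array range with mock as well, since IAA20 lay below the lower quartile of all loci on 9 arrays and IAA31 on 7, and IAA32 stood between 4.22 and 4.69 (log2 intensity) on all arrays, which limits the size of a fall that these 3 genes could show. The median change of these 6 genes was -0.33 in sid2 and -0.49 in Col, and whether it differed from that of the other 23 was not tested. IAA33 and IAA34 had the largest changes among them, at -1.40 ± 0.49 and -1.09 ± 0.36 in sid2 and -1.48 ± 0.49 and -1.15 ± 0.36 in Col. For both, the mock arrays differed by replicate number in the same way in both backgrounds. The IAA33 mock arrays held 5.20, 4.21 and 6.18 in sid2 and 4.90, 4.56 and 6.79 in Col for replicates 1, 2 and 3. Both genes were called in both backgrounds once the limit on the adjusted p was set to 0.05. All DEX arrays of IAA33 lay below the lower quartile of all loci, so its change ends near the low end of the array range. Over the alternatives, the smallest change of IAA33 was -0.86 in sid2 and -0.85 in Col, under 2-fold. IAA31 changed by -0.50 (log2) in sid2 and -0.64 in Col, and IAA20, IAA30 and IAA32 lay between -0.17 and 0.17 in sid2 and between -0.35 and 0.04 in Col.

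In 3 pairs of neighbouring Aux/IAA genes, no protein-coding gene of RefSeq lies between the members. IAA3 and IAA17 on chromosome 1 had the 2 largest falls of all members. IAA1 and IAA14 on chromosome 4 both fell. On chromosome 3, IAA7 fell while its neighbour IAA2 stood at 0.54 ± 0.20 in sid2 and 0.46 ± 0.20 in Col.

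Among the 13 ARF genes, 7 fell in sid2 and 5 fell in Col, and none was called higher. Over all loci, 14.8% in sid2 and 15.0% in Col were called lower. The median change of the 13 ARF genes was -1.01 in sid2 and -0.94 in Col. The 8 ARFs without a glutamine-rich middle region, which are usually classed as repressors, had all DEX arrays below all mock arrays in both backgrounds, and 5 of them were called in sid2 and 4 in Col. Groups that did not overlap in either direction made up 60.6% of all loci in sid2 and 57.7% in Col. The 5 activator ARFs, ARF5 to ARF8 and ARF19, were mixed, with 2 called lower in sid2 and 1 in Col and a median of -0.16 in each. Whether these 5 genes differed from the other 8 was not tested. ARF18, AT3G61830, had the largest fall of the family. ARF18 stood at 8.22, 7.82 and 7.97 (log2 intensity of replicates 1, 2 and 3) in sid2 DEX and at 10.96, 11.00 and 11.01 in sid2 mock, against 7.97, 7.62 and 8.0 in Col DEX and 10.97, 10.98 and 11.17 in Col mock. The arrays of each group stood close together, DEX and mock did not overlap, and the change was -2.98 ± 0.12 (adjusted p = 5.36e-09) in sid2 and -3.18 ± 0.12 (adjusted p = 3.32e-09) in Col.

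ARF4, AT5G60450, and ARF3, AT2G33860, promote the abaxial side of leaves and are targets of trans-acting small RNAs made from TAS3. In sid2, ARF4 had log2 intensities of 8.58, 8.09 and 7.99 with DEX and 11.04, 11.05 and 10.73 with mock, and in Col 8.17, 7.67 and 7.80 with DEX and 10.78, 10.73 and 10.84 with mock. This gave a change of -2.72 ± 0.15 (adjusted p = 6.81e-08) in sid2 and -2.90 ± 0.15 (adjusted p = 3.91e-08) in Col. The log2 intensities of ARF3 were 9.23, 8.85 and 8.83 in sid2 DEX and 11.29, 11.58 and 11.29 in sid2 mock, and 9.0, 8.59 and 8.94 in Col DEX and 11.29, 11.47 and 11.69 in Col mock. ARF3, listed as ETT in RefSeq, changed by -2.42 ± 0.16 (adjusted p = 2.13e-07) in sid2 and -2.64 ± 0.16 (adjusted p = 9.88e-08) in Col, and the arrays of DEX and mock did not overlap for either gene. The same small RNAs target ARF2, a repressor with roles in organ size and senescence, which changed by -0.76 ± 0.11 in sid2 and -0.68 ± 0.11 in Col and stayed under 2-fold.

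ARF8 and ARF6, activators that act together in flower maturation and share miR167 as a regulator, gave different values. ARF8 changed by -2.29 ± 0.16 in sid2 and -2.42 ± 0.16 in Col, whereas ARF6 changed by -0.16 ± 0.17 in sid2 and -0.16 ± 0.17 in Col. The miR160 targets ARF10, ARF16 and ARF17 were all lower in DEX arrays, and of these ARF10 was called. ARF10, which acts in the root cap, changed by -1.35 ± 0.27 in sid2 and -1.30 ± 0.27 in Col, and in both backgrounds its mock array of replicate 2 was lowest. ARF16 changed by -0.74 ± 0.12 in sid2 and -0.83 ± 0.12 in Col, and ARF17 by -0.54 ± 0.13 in sid2 and -0.52 ± 0.13 in Col. ARF1, a repressor of wide expression, changed by -1.01 ± 0.08 in sid2 and -0.97 ± 0.08 in Col.

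ARF7 and ARF19, the activators that drive lateral root formation, stood on opposite sides of 0. ARF7, listed as NPH4 in RefSeq, had all DEX arrays above all mock arrays, at 0.64 ± 0.14 in sid2 and 0.82 ± 0.14 in Col, which is under 2-fold. ARF19, AT1G19220, was lower. Arrays of sid2 held 10.05, 9.47 and 9.69 for ARF19 in DEX and 11.03, 11.40 and 10.56 in mock, and those of Col held 9.58, 9.65 and 8.97 in DEX and 10.66, 10.89 and 9.46 in mock (log2 intensity). In Col, mock replicate 3 stood among the DEX arrays, and the change was -1.26 ± 0.30 (adjusted p = 0.00383) in sid2 and -0.94 ± 0.30 (adjusted p = 0.0199) in Col. Without Col mock replicate 3, ARF19 was called in Col. Its call in sid2 was lost without the replicate block and when sid2 mock replicate 1, sid2 mock replicate 2, sid2 DEX replicate 2 or replicate 2 of all groups was left out. ARF5, known as MONOPTEROS and needed for vascular development, changed by 0.32 ± 0.18 in sid2 and 0.59 ± 0.18 in Col.

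**Figure D3:**
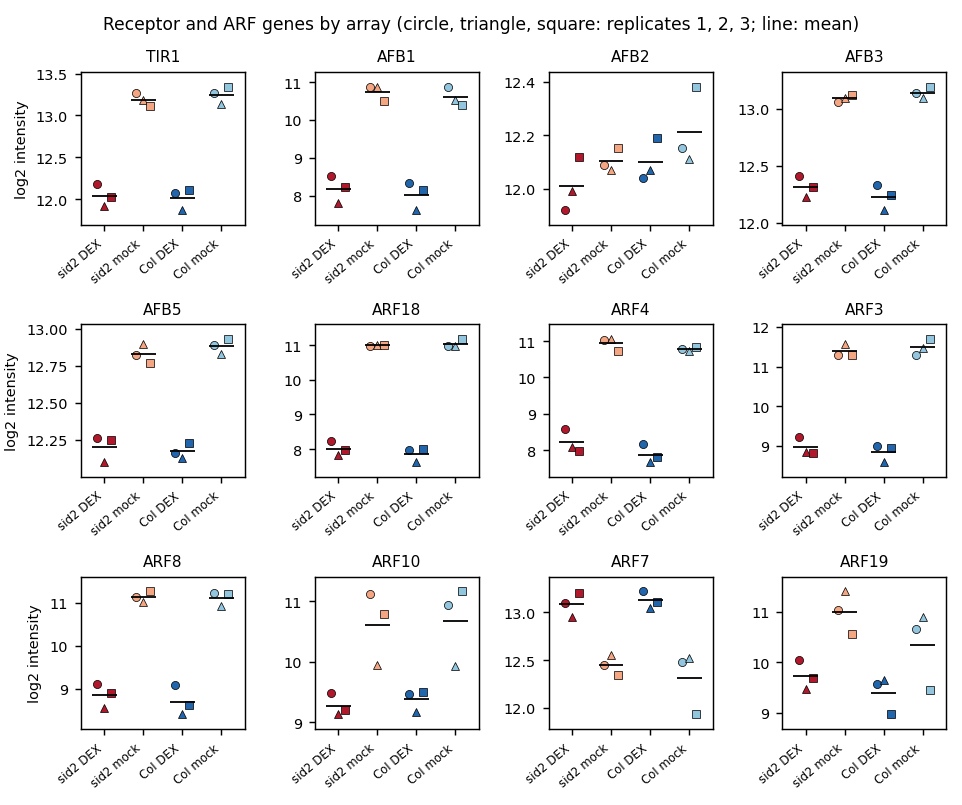
Log2 intensity of the 5 receptor genes and 7 ARF genes on each array, in the order sid2 DEX, sid2 mock, Col DEX and Col mock, with circles, triangles and squares for replicates 1, 2 and 3 and a line at the group mean. The vertical scale differs between panels. AFB2 overlaps between the groups, AFB1 and ARF18 have all DEX arrays far below the mock arrays, and ARF7 is the only gene shown with all DEX arrays on top.

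Loci for small RNAs of this pathway, which are miR160, miR167, miR847 and TAS3 named above and also miR390 and miR393, were looked up after the values of their targets had been seen. On these arrays they are read as precursor transcripts, which says nothing of the mature small RNA. Of 12 such loci, 3 were called, all lower in both backgrounds. Over all loci, 27.8% were called in sid2 and 28.7% in Col, with 14.8% and 15.0% called lower. MIR847, MIR390a, MIR390b, MIR160a, MIR160b, MIR167c and TAS3b lay below the lower quartile of all loci on all 12 arrays, which limits the falls they could show. MIR167d averaged 3.81 in sid2 DEX and 10.73 in sid2 mock, against 3.36 in Col DEX and 10.60 in Col mock (log2 intensity, n = 3 each), a change of -6.92 ± 0.25 in sid2 and -7.24 ± 0.25 in Col, and of -5.83 in sid2 and -5.90 in Col with 16 added to each intensity. MIR167b changed by -3.11 ± 0.21 in sid2 and -3.21 ± 0.21 in Col, and MIR167a by -0.06 ± 0.18 in sid2 and -0.12 ± 0.18 in Col. TAS3, the source of the small RNAs against ARF2, ARF3 and ARF4, changed by -2.43 ± 0.31 in sid2 and -2.68 ± 0.31 in Col. MIR393a, the precursor of a small RNA that targets TIR1, AFB1, AFB2 and AFB3, was not called. It changed by -0.86 ± 0.16 in sid2 and -0.89 ± 0.16 in Col, with its DEX arrays below the lower quartile of all loci. The precursor of miR847, which targets IAA28, was near the bottom of the array range, at 3.54 in sid2 DEX and 3.41 in sid2 mock and at 3.66 in Col DEX and 3.54 in Col mock.

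The DEX effects of both backgrounds were then compared gene by gene. In the difference between the DEX effects, sid2 minus Col, 0 of the 47 genes was called by limma and 0 had an unadjusted p under 0.05, while 0% of all loci were called. The 95% interval of the difference lay within 2-fold for 42 genes. It reached beyond 2-fold for IAA14, IAA17, IAA33, IAA34 and ARF19, and was widest for IAA17, at -1.47 to 1.82. For these 5 genes the interval still holds differences of more than 2-fold. All of these intervals include Col DEX replicate 2 under its label. If that array came from sid2, it would pull the differences toward 0. Intervals without it are not given here. IAA1 and IAA8 had the smallest p. The difference was 0.29 ± 0.18 (log2, ± SE) for IAA1, with an interval of -0.12 to 0.69, and 0.22 ± 0.15 for IAA8, with an interval of -0.11 to 0.55, both at an adjusted p of 1.

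Between the mock groups, sid2 minus Col, 0 of the 47 genes was called by limma, 1 had an unadjusted p under 0.05, and 0.00306% of all loci, a single locus, were called. ARF19 and IAA9 had the smallest p, with differences of 0.66 ± 0.30 (log2, ± SE, adjusted p = 0.717) for ARF19 and 0.16 ± 0.09 (adjusted p = 0.747) for IAA9. The low Col mock replicate 3 described for ARF19 enters this difference. Between the DEX groups, again 0 of the 47 genes and 0% of all loci were called, and 4 genes had an unadjusted p under 0.05. IAA8 stood higher in sid2 DEX than in Col DEX by 0.30 ± 0.11 (adjusted p = 0.797) and IAA1 by 0.36 ± 0.13 (adjusted p = 0.797). The SID2 transcript itself was called by limma in neither comparison. It differed by -3.97 ± 1.19 (adjusted p = 0.615) between the mock groups and by -4.17 ± 1.19 (adjusted p = 0.783) between the DEX groups. Its SD was 3.63 in Col DEX and at most 0.33 in the other groups. A lack of calls in these comparisons therefore does not show that the backgrounds were alike. Without Col DEX replicate 2, again 0 of the 47 genes was called in these comparisons, while over all loci 3 were called for the difference between the DEX effects, 2 between the mock groups and 38 between the DEX groups.

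**Figure D4:**
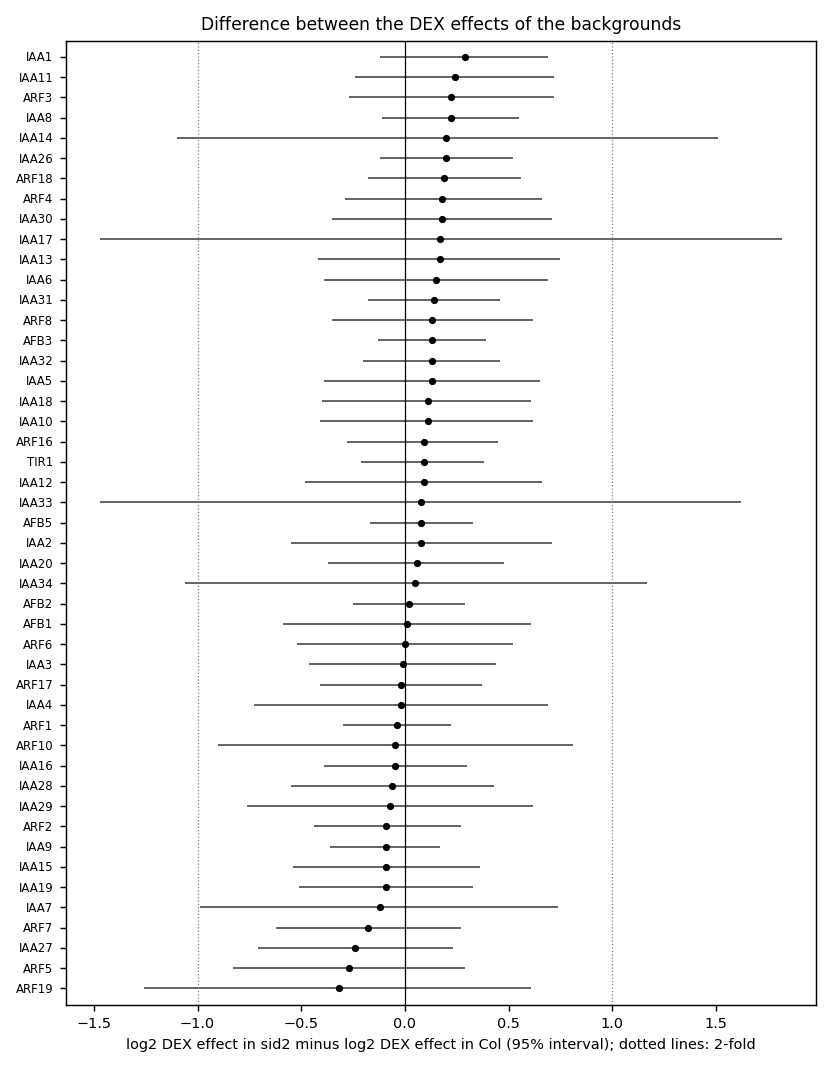
Difference between the DEX effects of the backgrounds, sid2 minus Col, for each of the 47 genes with its 95% interval on the log2 scale, sorted by size, with dotted lines at 2-fold. All 47 intervals include 0, and those of IAA14, IAA17, IAA33, IAA34 and ARF19 cross a dotted line. Col DEX replicate 2 is included under its label.

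Other genes of the auxin pathway were read from lists of named genes to place these values. The counts of this and the next 2 paragraphs stand against the shares over all loci. These were 14.8% called lower and 13.0% higher in sid2, and 15.0% lower and 13.8% higher in Col. The family genes outside the 47, AFB4 and 9 ARFs, had 1 call lower and 2 higher in each background and a median of 0.28 in sid2 and 0.32 in Col. ARF11 changed by -2.35 ± 0.29 in sid2 and -1.99 ± 0.29 in Col. ARF14 changed by 1.20 ± 0.18 in sid2 and 1.39 ± 0.18 in Col, and ARF21 by 1.08 ± 0.21 in sid2 and 1.09 ± 0.21 in Col. The mock arrays of both genes lay below the lower quartile of all loci, and with 16 added to each intensity ARF14 changed by 0.69 in sid2 and 0.78 in Col and ARF21 by 0.52 in sid2 and 0.56 in Col, under 2-fold. ARF12 to ARF15 and ARF20 to ARF22 are similar copies on chromosome 1, whose probes may not tell them apart. In the list of 13 SCF subunits, regulators and co-repressors, only AXR1, a subunit of the enzyme that activates RUB for cullin modification, was called, and it rose by 1.21 ± 0.09 in sid2 and 1.20 ± 0.09 in Col. The median of this list was 0.27 in sid2 and 0.26 in Col.

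Auxin-responsive gene families outside the repressors moved in opposite directions. Of 7 GH3 genes, whose enzymes join auxin or other acids to amino acids, 6 rose in each background and GH3.17 was not called, with a median of 4.22 in sid2 and 4.41 in Col. GH3.2 rose by 7.30 ± 0.18 in sid2 and 7.94 ± 0.18 in Col, and GH3.3 by 5.04 ± 0.28 in sid2 and 5.28 ± 0.28 in Col. GH3.4 rose by 4.89 ± 0.34 in sid2 and 5.18 ± 0.34 in Col. The mock arrays of GH3.2 and GH3.4 stood near the low end of the array range, at 4.70, 4.76 and 4.94 in sid2 and 3.90, 4.58 and 4.40 in Col for GH3.2 and at 4.59, 3.86 and 4.16 in sid2 and 4.04, 4.21 and 4.29 in Col for GH3.4 (log2 intensity). With 16 added to each intensity GH3.2 changed by 6.65 in sid2 and 7.08 in Col, and GH3.4 by 4.02 in sid2 and 4.31 in Col. In Col the call of GH3.1, at 1.01, was lost without DEX replicate 1, DEX replicate 2 or mock replicate 2, and with 16 added GH3.1 was under 2-fold in both backgrounds. GH3.17, at 2.00 in Col, was called there without Col DEX replicate 2, sid2 DEX replicate 1 or sid2 DEX replicate 2. Of 16 SAUR genes, small auxin-induced genes that promote cell expansion, 15 fell in sid2 and 16 in Col, with a median of -5.03 in sid2 and -4.85 in Col. SAUR16 changed by -6.27 ± 0.55 in sid2 and -8.04 ± 0.55 in Col, SAUR63 by -5.96 ± 0.26 in sid2 and -6.24 ± 0.26 in Col, and SAUR21 by -5.56 ± 0.35 in sid2 and -6.07 ± 0.35 in Col. For SAUR16 the sid2 DEX arrays held 5.37, 7.84 and 4.87 (log2 intensity of replicates 1, 2 and 3), and without sid2 DEX replicate 2 its change in sid2 was -7.19. With 16 added to each intensity, the change of SAUR16 was -5.88 in sid2 and -7.23 in Col, that of SAUR63 -4.92 in sid2 and -5.10 in Col, and that of SAUR21 -4.75 in sid2 and -5.07 in Col. SAUR10 was not called in sid2, at -0.84 ± 0.22. Many SAUR genes are near copies of each other, so their values are not independent. Of the 4 LBD genes, which act downstream of ARF7 and ARF19 in lateral roots, LBD16 rose by 3.32 ± 0.35 in sid2 and 2.44 ± 0.35 in Col, and the other 3 were not called. With 16 added to each intensity LBD16 changed by 2.60 in sid2. The median of the 4 genes was 0.36 in sid2 and 0.45 in Col.

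Auxin synthesis and transport genes gave more falls than rises. Of 14 TAA and YUC genes, which turn tryptophan into auxin, 5 fell and 1 rose in each background, with a median of -0.32 in sid2 and -0.60 in Col. TAR2 changed by -4.71 ± 0.29 in sid2 and -5.23 ± 0.29 in Col, YUC6 by -2.73 ± 0.21 in sid2 and -3.15 ± 0.21 in Col, and TAA1 by -2.22 ± 0.24 in sid2 and -2.48 ± 0.24 in Col. The single rise was YUC8, at 2.26 ± 0.31 in sid2 and 1.81 ± 0.31 in Col, and it is named after its values were seen. Of 16 transport genes, 7 fell and 1 rose in sid2, and 8 fell and 1 rose in Col, with a median of -0.78 in sid2 and -1.03 in Col. PIN5 changed by -3.48 ± 0.30 in sid2 and -3.49 ± 0.30 in Col, PIN6 by -3.38 ± 0.15 in sid2 and -3.30 ± 0.15 in Col, and the influx carrier AUX1 by -3.11 ± 0.12 in sid2 and -3.41 ± 0.12 in Col. The single rise was the transporter ABCB4, at 2.99 ± 0.32 in sid2 and 3.25 ± 0.32 in Col, and it is also named after its values were seen.

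**Figure D5:**
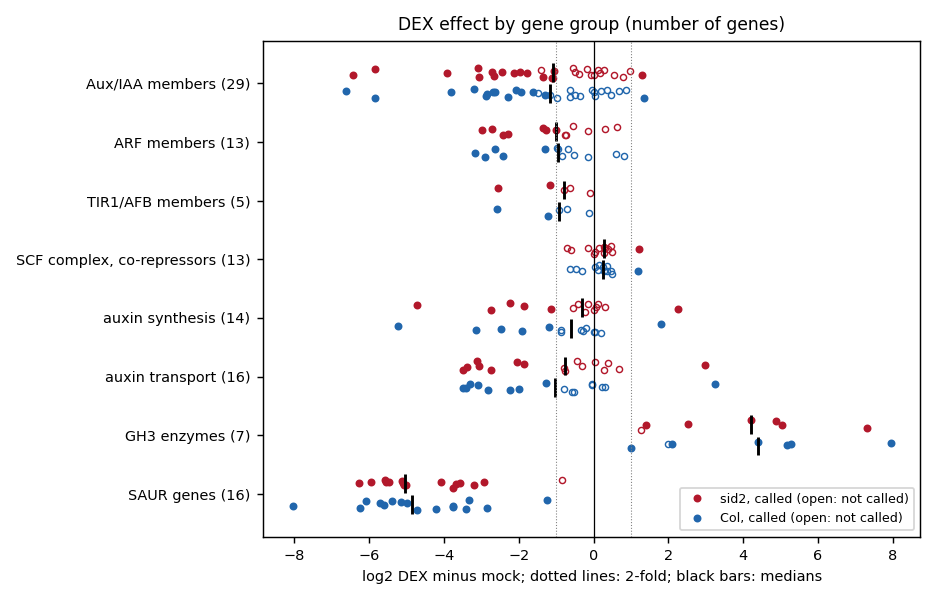
Change with DEX, as log2 DEX minus mock, of each gene in 8 groups of auxin genes, for sid2 (red) above Col (blue), with filled circles for called genes, black bars at the medians and dotted lines at 2-fold. The GH3 genes lie to the right with medians of 4.22 in sid2 and 4.41 in Col, and the SAUR genes to the left with medians of -5.03 in sid2 and -4.85 in Col, while the Aux/IAA genes spread on both sides of 0.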

How the data were processed

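Leaf RNA of 12 samples was hybridised to 12 NimbleGen arrays built for TAIR9. Probes were combined into transcript values by RMA (robust multi-array average), and the transcript with the higher value was kept for each gene by the authors. The deposited values are intensities on a linear scale, 1 per locus and array, for 32627 loci with 0 missing values. RMA equalises the arrays, so a change in total RNA does not show, and whether these arrays were normalized with others is not given in the sources used here. Sequences of probes, flags, slides and scan dates were not analysed here.

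Intensities were converted to log2 with no offset. A linear model with 4 groups was fitted to all loci with limma 3.58.1 (lmFit and eBayes, R 4.3.3), and duplicateCorrelation (statmod 1.5.0) took the replicate number as a random block with a consensus correlation of 0.208, after the model of the study. The methods describe 3 independent experiments. Deviations of same-numbered arrays correlated at 0.100 to 0.215 between sid2 DEX and sid2 mock, 0.174 to 0.303 between Col DEX and Col mock, 0.387 to 0.668 between the DEX groups and 0.563 to 0.733 between the mock groups. The Benjamini-Hochberg adjustment ran over all loci, in place of the study's q-values, and a call needed both an adjusted p under 0.01 and over 2-fold change. The fit was also run on simulated data with known changes in a small share of the loci, in Col DEX alone. Far more loci changed in the real arrays, so that run does not bear on the results here. The number of arrays limits the precision.

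Members and lists were chosen with earlier results of these data known. Array values are given for the receptors, for the Aux/IAA genes (up to 4 rises and 8 falls) and ARF genes (up to 3 each) called in both backgrounds with the largest mean changes, and for the 2 members with the smallest p in each comparison of backgrounds. For other lists, up to 3 called genes with the largest mean change are named. RefSeq (TAIR10.1) gave names only, and all 47 members matched it, 9 of them under another symbol. Alternatives changed the block, scaling, offset, filter, weights, prior, thresholds and the arrays used.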

Additional observations from a re-analysis of the deposited data

How the results depend on the processing

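Under the 24 alternatives that kept a limit of 2-fold or less, ARF1, ARF19 and IAA19 were lost in at least 1 among the 24 members called in sid2, and the 21 called in Col were called every time. Among these alternatives, the looser thresholds cannot lose a call by construction. Those without an array of the other background keep all arrays of the contrast. Leaving out arrays gave 23 to 25 calls in sid2 and 21 to 23 in Col, with 8672 to 9130 loci called in sid2 and 8954 to 9393 in Col. In sid2, ARF19 was lost when DEX replicate 2 or either of mock replicates 1 and 2 was left out, IAA19 when mock replicate 3 was, and ARF1 when DEX replicate 3 was. IAA18 was added in sid2 without replicate 1 or 3 of either treatment, IAA34 without mock replicate 2 of either background, and IAA33 without Col mock replicate 3. In Col, leaving out mock replicate 1, mock replicate 3 or DEX replicate 3 added IAA19, and leaving out mock replicate 3 also added ARF19. ARF1 was added in Col without its DEX replicate 1, and IAA34 without its mock replicate 2. Without the replicate block, 23 members were called in sid2 and 21 in Col, with 8809 and 9086 over all loci, and ARF19 was the member lost. With the replicate block as a fixed term the calls were the same 24 and 21.

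Stricter thresholds lower the counts by construction. A change of more than 4-fold left 14 members in sid2 and 15 in Col, with 4303 and 4485 loci in all. The test of limma against a 2-fold change (treat) left 15 in sid2 and 17 in Col, with 5091 and 5328 loci in all, and neither kept IAA28, TIR1, IAA26 or ARF10. With no fold limit, 34 members were called in each background, among 14782 loci in sid2 and 15171 in Col. In the comparisons between backgrounds, 0 members were called under each alternative run.

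Shifting the arrays to a common median raised the median change of all loci by 0.10 in sid2 and 0.11 in Col, and left the members' medians at -0.95 in sid2 and -0.86 in Col. Signs turned in uncalled genes near 0, and IAA29 in Col, at 0.00, ranged between -0.31 and 0.18 over its alternatives. In sid2 these were IAA29 at 0.03 and AFB2 at 0.01 with a common median, IAA20 at -0.04 with array weights, IAA29 at 0.04, IAA30 at 0.05 and ARF6 at 0.01 without replicate 2 of all groups, IAA20 at -0.06 without sid2 DEX replicate 1 and -0.05 without sid2 mock replicate 2, ARF6 at 0.03 without sid2 mock replicate 2, and IAA29 at 0.03 without sid2 DEX replicate 2. Over the fits without an array or replicate number, the lowest values of these genes in sid2 were -0.17 for IAA29, -0.33 for IAA30 and -0.31 for ARF6. In Col they were IAA20 at 0.06 with a common median, 0.05 without Col mock replicate 1 and 0.07 without Col DEX replicate 3, and IAA32 at -0.05 without Col DEX replicate 3. The other ends of these ranges in Col were -0.22 for IAA20 and 0.12 for IAA32. The cause was not tested. Adding 16 to each intensity moved the called changes of IAA5 and IAA6 by over 1.5-fold, to -2.16 and -1.29 in sid2 and -2.28 and -1.43 in Col. For genes outside the 47, leaving out arrays and adding 16 were chosen after seeing the data.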
